A study of Rattus norvegicus with 8 samples.

Results

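The genes described here encode the T cell receptor complex and the proteins that carry its first signals: the invariant chains Cd3d, Cd3e, Cd3g and Cd247, the co-receptors Cd4 and Cd8a, the kinases Lck and Zap70, and the adaptor Lat. They were chosen by gene symbol, and every probe set that the array's annotation pairs with only that gene was kept. All 9 genes were measured, by 14 of the 31042 probe sets tested. Whole blood was taken from male Wistar rats that were 7 weeks old when purchased and, after acclimation, ate their diet for 8 weeks. The mulberry group ate a high-fat diet (Quick fat) holding 1% mulberry leaf powder, and the high-fat group ate the same high-fat diet alone, each with 4 arrays. Each diet was given to 10 rats, and each array is titled as a biological replicate, although nothing says whether it holds RNA of a single rat or of several pooled rats. The spread behind each p-value is that between these 8 samples. For the p-values and SEs of limma, it is adjusted towards the variance of all probe sets tested. A group fed a normal diet was not analysed here.

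In a T cell, the variable receptor chains that recognise antigen have almost no tail inside the cell, and the CD3 chains with the zeta chain do the signalling for them. When CD4 or CD8 binds the same MHC molecule as the receptor, it brings the kinase Lck to the tyrosine motifs of these tails. Zap70 docks on the phosphorylated motifs and phosphorylates Lat, which gathers the enzymes of the calcium and Ras pathways. In blood, the CD3 chains mark T cells, whereas rat monocytes also carry CD4 and rat natural killer cells also carry CD8 alpha and use the zeta chain, Lck and Zap70.

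The deposited values varied very little between arrays, with an SD over the 8 arrays between 8.53e-07 and 2.24e-05 on the log2 scale for the 14 probe sets. The amount of compression is unknown, so no difference is read as a fold change. Values are given in SD units, as the distance of an array from the mean of that probe set over the 8 arrays, divided by its SD over those arrays. Differences are mulberry minus high-fat in the same unit. The tissue label was checked on defining blood markers: the mean log2 value was 13.85 for the red cell gene Alas2, 12.67 for the platelet gene Pf4 and 10.44 for the neutrophil gene S100a8, and the arrays' medians lay between 6.5672 and 6.5673. No detection calls were used, and 4 arrays a diet set the precision.

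None of the 14 probe sets passed the threshold of adjusted p under 0.05 in limma, and none of all 31042 did (0%). At an unadjusted p under 0.05, 1 of the 14 (7.14%) was below it, the probe set of Cd3g, against 4.36% of all probe sets (1.61% lower with mulberry and 2.74% higher). In no member did the diet groups separate completely, against 2.52% of all probe sets. The mean was lower with mulberry for 9 of the 14 and higher for 5, while 47.3% of all probe sets were lower. The median difference was -0.267 SD units over the 14 probe sets and 0.056 over all. The unadjusted count was 2 without mulberry replicate 4 or without high-fat replicate 3, and 0 without mulberry replicate 2, high-fat replicate 1 or high-fat replicate 2. Without mulberry replicate 3 or high-fat replicate 4 the count was 1, the probe set of Cd4. Members that separated numbered 2 without mulberry replicate 4 (Cd3g and Cd3d) or high-fat replicate 3 (Cd3g and the dimmer Zap70 probe set), and 1 without mulberry replicate 3 or high-fat replicate 4 (Cd4). With fewer arrays more probe sets separate, 1840 of all 31042 without mulberry replicate 4 and 2200 without high-fat replicate 3, against 781 with every array. In whole blood, fewer T cells and less RNA of a gene per T cell cannot be told apart.

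**Figure D1:**
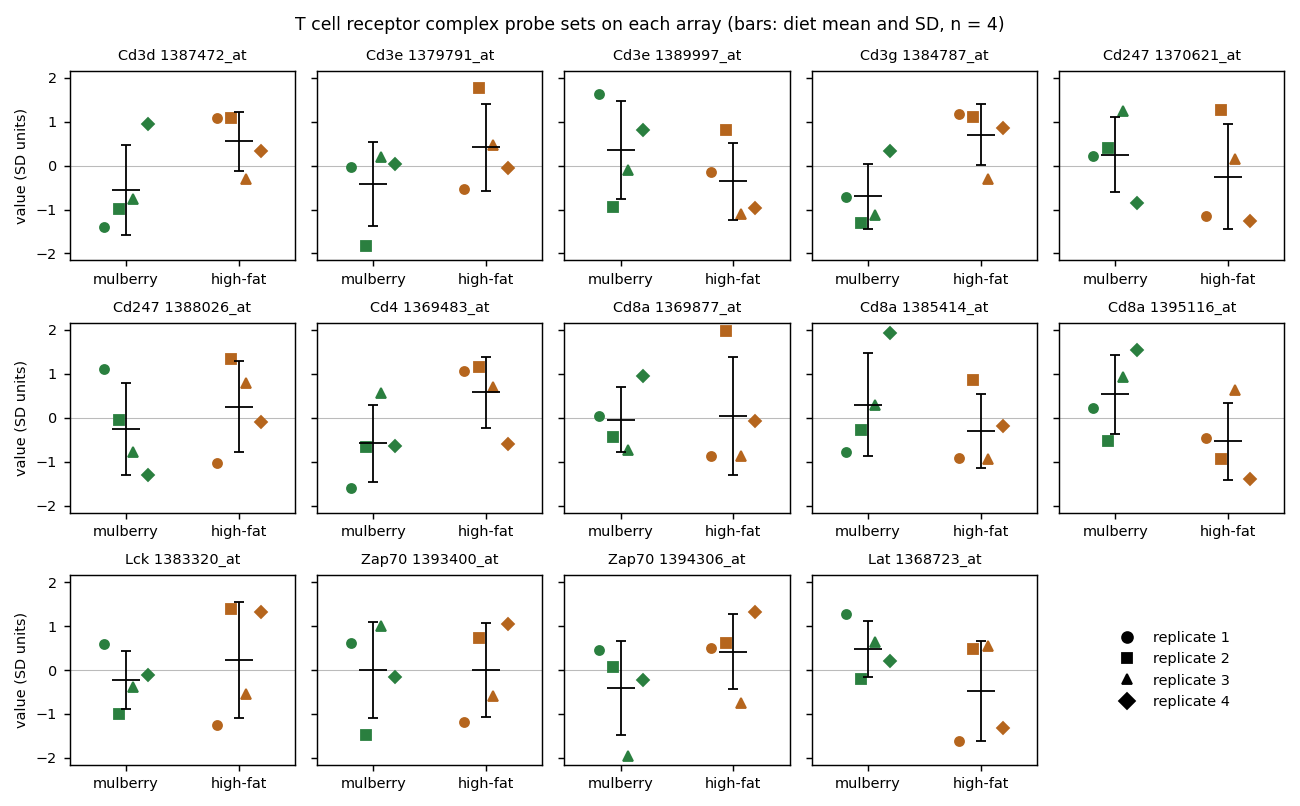
Value of each probe set on each array in SD units, mulberry arrays on the left (green) and high-fat arrays on the right (brown). Marker shapes give the replicate number, and bars give the mean and SD of 4 arrays. The groups overlap in all 14 panels, least in those of Cd3g and Cd4, where mulberry lies below high-fat in 15 of the 16 pairs of arrays.

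Cd3g encodes the gamma chain of CD3, which pairs with the epsilon chain. Its probe set (mean log2 value 10.52) stood at -0.714, -1.31, -1.12 and 0.337 SD units in mulberry replicates 1 to 4, against 1.17, 1.10, -0.314 and 0.857 in high-fat replicates 1 to 4. Mulberry replicate 4 lay above high-fat replicate 3, and the other 15 pairs of arrays had the mulberry array lower. The group means were -0.702 ± 0.736 with mulberry and 0.702 ± 0.691 with high-fat (SD, n = 4 each). The difference was -1.40 ± 0.481 (SE; limma unadjusted p = 0.0231, adjusted p = 1), and a two-sided exact permutation test over arrays gave p = 0.0571, where 4 against 4 cannot go below 0.0286. Median centring of the arrays, which raised the log2 difference of every probe set by the same amount, turned this difference to 0.949. Quantile normalization made it 0, since Cd3g then had the same value on every array and no difference could appear. With the mean of the array's hybridization controls as a covariate the difference was -0.949 ± 0.621 (limma unadjusted p = 0.179). These controls averaged 0.558 ± 0.635 with mulberry and -0.558 ± 0.856 with high-fat (SD), a difference of 1.12, so the covariate overlaps with diet.

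Cd3d, the delta chain, pairs with the epsilon chain in the same way. Its probe set (mean log2 value 9.74) stood at -1.41, -0.983, -0.759 and 0.939 in mulberry replicates 1 to 4, against 1.10, 1.09, -0.309 and 0.331 in high-fat replicates 1 to 4. Mulberry replicate 4 lay above high-fat replicates 3 and 4, and the mulberry array was lower in the other 14 of 16 pairs. The means were -0.553 ± 1.03 with mulberry and 0.553 ± 0.677 with high-fat (SD, n = 4 each), a difference of -1.11 ± 0.58 (SE; limma unadjusted p = 0.0999, adjusted p = 1). Without mulberry replicate 4 the groups separated for both genes, with differences of -1.64 for Cd3g and -1.60 for Cd3d (limma unadjusted p = 0.00594 and 0.00783, adjusted p = 0.945 for each). Median centring turned the Cd3d difference to 0.57, quantile normalization made it 0, and the hybridization covariate gave -0.439.

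Of the 36 pairs among the 9 genes, Cd3d with Cd3g had the highest correlation over all 8 arrays. With each value centred within its diet, Pearson's r over the 8 arrays was 0.862 (exact permutation p = 0.00568, 0.204 after adjustment over 36 pairs) and Spearman's rho 0.881 (exact permutation p = 0.00724, adjusted p = 0.261). Without the 2 arrays farthest from the median of Cd3d, r was 0.661, below the 0.969 of Cd3d with Cd8a computed the same way. The pair did not pass the adjustment over all pairs. Cd3g, Cd3d and Cd3e lie next to each other on chromosome 8 in RefSeq (assembly GRCr8). Cd3g and Cd3d are read away from each other, with 1601 bases between their start sites, and Cd3e starts 26251 bases from Cd3d. Their promoter windows are shown because these CD3 chain genes are neighbours. Each window holds 250 bases before and 50 after the start site, written 5′ to 3′ on the strand of the gene, as RefSeq gives them for GRCr8. Capitals mark AGGAAG or its reverse complement CTTCCT, the core that ETS transcription factors recognise.
Cd3g, chr8:54183869-54184168, minus strand: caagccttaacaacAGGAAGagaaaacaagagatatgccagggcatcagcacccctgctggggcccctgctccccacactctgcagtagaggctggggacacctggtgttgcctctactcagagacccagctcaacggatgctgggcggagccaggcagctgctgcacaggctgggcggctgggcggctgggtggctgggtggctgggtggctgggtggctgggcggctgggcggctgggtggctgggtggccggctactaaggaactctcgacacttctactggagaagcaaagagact
Cd3d, chr8:54185269-54185568, plus strand: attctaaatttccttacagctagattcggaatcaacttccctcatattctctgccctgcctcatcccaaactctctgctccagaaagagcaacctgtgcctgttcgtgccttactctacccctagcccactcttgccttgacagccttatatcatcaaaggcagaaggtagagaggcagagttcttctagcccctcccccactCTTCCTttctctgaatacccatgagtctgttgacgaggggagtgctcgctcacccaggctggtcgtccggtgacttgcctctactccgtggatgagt
Cd3e, chr8:54211721-54212020, minus strand: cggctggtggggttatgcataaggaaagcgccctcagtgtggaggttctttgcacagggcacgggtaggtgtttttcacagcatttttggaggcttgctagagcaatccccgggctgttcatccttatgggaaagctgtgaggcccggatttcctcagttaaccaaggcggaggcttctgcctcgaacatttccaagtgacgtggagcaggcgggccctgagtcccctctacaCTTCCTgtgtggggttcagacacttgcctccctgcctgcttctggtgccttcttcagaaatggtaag
The core begins at base -236 in the window of Cd3g, at -47 in that of Cd3d and at -17 in that of Cd3e, counted from the start site. The annotation gave 9 windows for 8 of the 9 genes, Lck having a pair of them and Cd4 none here, and 8 of these 9 windows held the core, against 34.5% of all 33469 windows. The Cd8a window did not hold these letters. TGTGGT, a core of RUNX factors, was found in 2 of the 9 windows and 17.3% of all, and TGACGT, part of the CREB element, in 2 of the 9 and 7.94% of all, searching both strands. The motifs were chosen after the windows had been read, and a match of letters is a description, not a binding site.

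**Figure D2:**
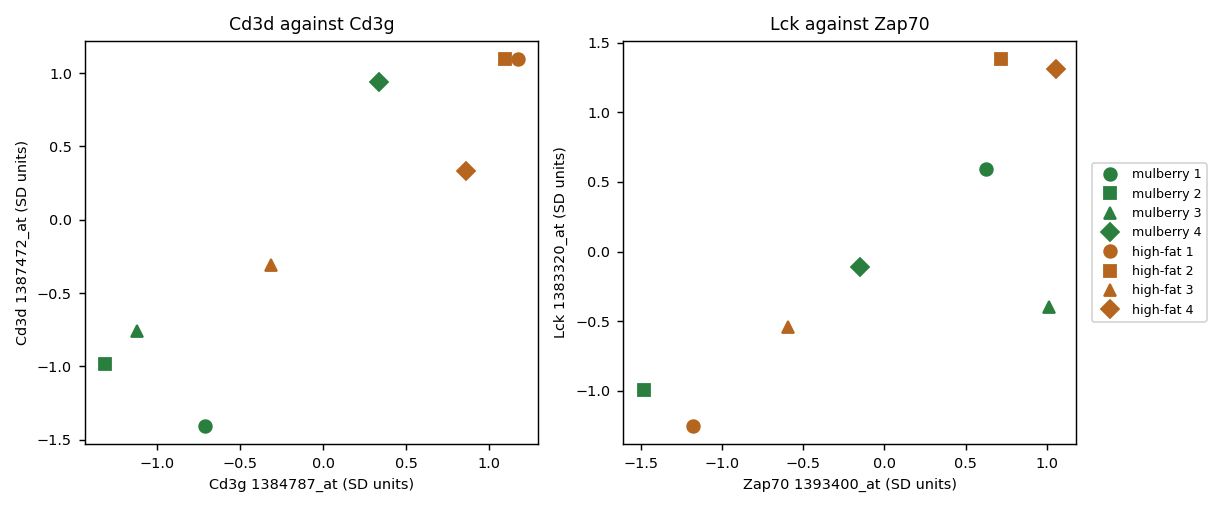
Cd3d against Cd3g (left) and Lck against Zap70 (right), in SD units, with 1 point per array, mulberry in green and high-fat in brown. Mulberry replicates 1 to 3 lie at the low end of both CD3 genes and high-fat replicates 1 and 2 at the high end. In Lck and Zap70 the diets are mixed along both axes, and mulberry replicate 3 has a high Zap70 value and a low Lck value.

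Cd3e encodes the epsilon chain, which is part of both CD3 pairs, and its probe sets differed in direction. The brighter probe set (mean log2 value 9.43) stood at -0.0326, -1.83, 0.186 and 0.0265 in mulberry replicates 1 to 4, against -0.532, 1.76, 0.47 and -0.0436 in high-fat replicates 1 to 4. Mulberry replicate 2 was the lowest of the 8 arrays and high-fat replicate 2 the highest, and the other arrays of the diets overlapped. Leaving out mulberry replicate 2 gave a difference of -0.487, and leaving out high-fat replicate 2 gave -0.498. The dimmer one (mean log2 value 7.83) stood at 1.62, -0.936, -0.0967 and 0.818 in mulberry replicates 1 to 4, against -0.151, 0.803, -1.10 and -0.963 in high-fat replicates 1 to 4. With all arrays the differences were -0.827 ± 0.649 and 0.705 ± 0.669 (SE; limma unadjusted p = 0.244 and 0.328). Once the diet means were removed, the correlation between the probe sets did not pass the threshold, with r = 0.662 over 8 arrays (exact permutation p = 0.076, adjusted p = 0.228 over the 6 pairs of probe sets of the same gene, rho = 0.619, exact permutation p = 0.115, adjusted p = 0.397). Without the 2 farthest arrays this r was 0.658.

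Cd247, the zeta chain, carries more of the tyrosine motifs than any CD3 chain. Its brighter probe set (mean log2 value 8.86) stood at 0.208, 0.406, 1.24 and -0.847 in mulberry replicates 1 to 4, against -1.15, 1.26, 0.159 and -1.27 in high-fat replicates 1 to 4. Its dimmer one (mean log2 value 8.70) stood at 1.11, -0.0476, -0.781 and -1.30 in mulberry replicates 1 to 4, against -1.02, 1.33, 0.792 and -0.088 in high-fat replicates 1 to 4. The diets overlapped widely in both, with differences of opposite sign, 0.502 ± 0.76 and -0.508 ± 0.712 (SE; limma unadjusted p = 0.531 and 0.499). Leaving out arrays in turn gave 0.176 (without high-fat replicate 4) to 1.08 (without high-fat replicate 2) for the brighter and -1.0 (without mulberry replicate 1) to -0.163 (without high-fat replicate 2) for the dimmer. High-fat replicates 1 and 4, low in the brighter probe set, were also the arrays with low hybridization controls (bacterial transcripts spiked in before hybridization), which averaged -1.44 and -1.07 there. With these controls as a covariate the differences were -0.731 and -1.99, the dimmer probe set with an unadjusted p = 0.00188 and an adjusted p = 1 in limma. Between the probe sets r was 0.608 (exact permutation p = 0.114, adjusted p = 0.229, rho = 0.5, exact permutation p = 0.216, adjusted p = 0.432) and 0.329 without the 2 farthest arrays.

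The co-receptor gene Cd4, which marks helper T cells, had a probe set (mean log2 value 6.84) at -1.59, -0.668, 0.559 and -0.634 in mulberry replicates 1 to 4, against 1.07, 1.15, 0.704 and -0.594 in high-fat replicates 1 to 4. Mulberry replicate 3 reached into the high-fat range, and the other mulberry arrays lay below every high-fat array. The means were -0.583 ± 0.88 with mulberry and 0.583 ± 0.808 with high-fat (SD, n = 4 each). The difference was -1.17 ± 0.581 (SE; limma unadjusted p = 0.0861, adjusted p = 1; exact permutation p = 0.0571), turning to 0.967 under median centring and 0.437 under quantile normalization. Since rat monocytes carry CD4, their markers are given beside it: 10 of 11 measured monocyte genes had lower means with mulberry, and the list's mean ran from -0.844 to 0.362 in the mulberry arrays and from -0.547 to 1.67 in the high-fat arrays. The high monocyte value was that of high-fat replicate 4, where Cd4 was the lowest of its diet, and without that array the Cd4 difference was -1.49 (limma unadjusted p = 0.0261, adjusted p = 1). Without mulberry replicate 3 it was -1.47 (limma unadjusted p = 0.0291, adjusted p = 1).

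Cd8a, the alpha chain of the co-receptor of cytotoxic T cells, was measured by 3 probe sets. The probe set with a mean log2 value of 8.54 stood at 0.0408, -0.438, -0.725 and 0.959 in mulberry replicates 1 to 4, against -0.862, 1.97, -0.866 and -0.0744 in high-fat replicates 1 to 4. The brightest, at 8.87, stood at -0.77, -0.267, 0.299 and 1.93 in mulberry replicates 1 to 4, against -0.919, 0.859, -0.94 and -0.197 in high-fat replicates 1 to 4. Both were high in mulberry replicate 4 and high-fat replicate 2. The dimmest, at 7.46, stood at 0.213, -0.531, 0.925 and 1.54 in mulberry replicates 1 to 4, against -0.452, -0.937, 0.639 and -1.40 in high-fat replicates 1 to 4, so that high-fat replicate 2 was low here. In that order the differences were -0.0816 ± 0.718, 0.598 ± 0.864 and 1.07 ± 0.607 (SE; limma unadjusted p = 0.913, 0.512 and 0.122). Leaving out high-fat replicate 2 turned that of the probe set at 8.54 to 0.853, and leaving out mulberry replicate 4 made that of the brightest 0.0783. Between the brightest and the one at 8.54, r was 0.774 (exact permutation p = 0.0301, adjusted p = 0.181, rho = 0.595, exact permutation p = 0.132, adjusted p = 0.397), and -0.104 without the 2 farthest arrays, so it rested on those arrays. The dimmest had r = -0.118 with the one at 8.54 and 0.227 with the brightest (exact permutation p = 0.79 and 0.587, adjusted p = 0.948 and 0.881). Natural killer cells, which carry CD8 alpha in the rat, had lower means with mulberry in 11 of 12 marker genes, whose mean ran from -0.694 to -0.0245 in the mulberry arrays and from -0.447 to 1.83 in the high-fat arrays. High-fat replicate 4, the array at 1.83, was below the average in all 3 Cd8a probe sets.

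Whether the co-receptor genes differed from each other in their response to diet was tested on the value of Cd4 minus that of Cd8a on each array, with the probe set of highest mean for each. This contrast was -0.818, -0.40, 0.26 and -2.57 in mulberry replicates 1 to 4, against 1.99, 0.294, 1.64 and -0.397 in high-fat replicates 1 to 4. The means were -0.882 ± 1.21 with mulberry and 0.882 ± 1.12 with high-fat (SD, n = 4 each), a difference of -1.76 that did not pass the threshold (two-sided exact permutation p = 0.0571). Against the other Cd8a probe sets the difference was -1.08 for the one at 8.54 (exact permutation p = 0.286, adjusted p = 0.286 over the 3 Cd8a probe sets) and -2.24 for the dimmest (exact permutation p = 0.0286, adjusted p = 0.0857). The brightest had an adjusted p of 0.0857 in the same exact permutation tests. With hybridization controls as a covariate the contrast was -2.01 (exact permutation p = 0.0286). With polyA controls (transcripts spiked in before labelling) it was -1.39 (exact permutation p = 0.257). The polyA controls also differed between the diets, by 0.981. Both covariate tests permuted the diets while the controls stayed with their arrays, so their p-values do not allow for this overlap with diet. Without mulberry replicate 4 the contrast was -1.18 (exact permutation p = 0.314). Median centring made the contrast -0.227. After quantile normalization it was 0.437, which was the difference of Cd4 alone, since that of Cd8a was 0.

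**Figure D3:**
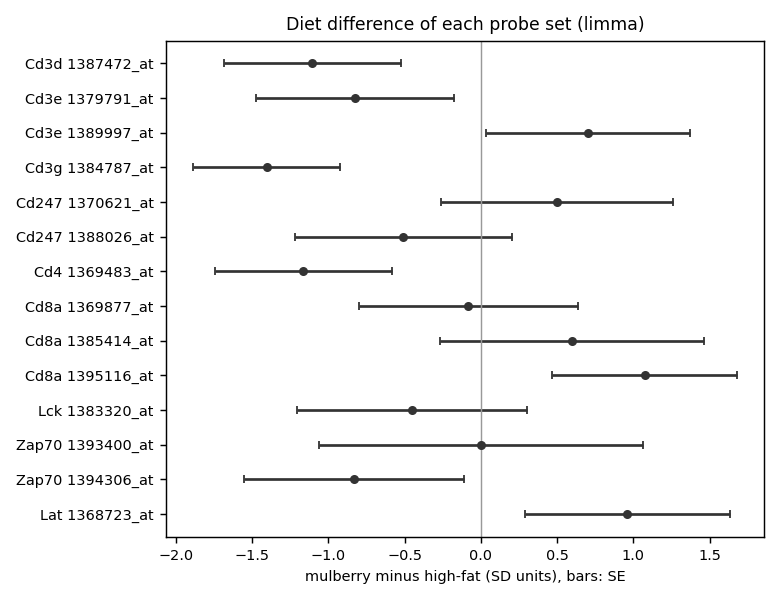
Difference between the diets for each probe set in SD units, mulberry minus high-fat, with bars of 1 SE from limma. Cd3g has the difference farthest from 0 at -1.40, and probe sets of the same gene lie on opposite sides of 0 for Cd3e, Cd247 and Cd8a.

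Lck, the kinase that starts the signal, had a probe set (mean log2 value 10.37) at 0.595, -0.994, -0.394 and -0.11 in mulberry replicates 1 to 4, against -1.25, 1.38, -0.539 and 1.31 in high-fat replicates 1 to 4. The high-fat arrays spread over a wider range (SD 1.33) than the mulberry arrays (SD 0.66), which lay inside it. The difference was -0.452 ± 0.756 (SE; limma unadjusted p = 0.569). It was -1.01 without high-fat replicate 1, -0.0741 without high-fat replicate 2, -0.098 without high-fat replicate 4 and -0.198 without mulberry replicate 2. Zap70, the kinase recruited to the receptor tails, had its brighter probe set (mean log2 value 8.56) at 0.622, -1.48, 1.01 and -0.151 in mulberry replicates 1 to 4, against -1.18, 0.719, -0.592 and 1.05 in high-fat replicates 1 to 4. The diet means were equal to within -0.000586 ± 1.06 (SE; limma unadjusted p = 1.00). The dimmer Zap70 probe set (mean log2 value 7.84) stood at 0.458, 0.0671, -1.96 and -0.234 in mulberry replicates 1 to 4, against 0.498, 0.606, -0.745 and 1.31 in high-fat replicates 1 to 4. Replicate 3 was the low array of each diet here, and the difference was -0.835 ± 0.721 (SE; limma unadjusted p = 0.286). The correlation between the Zap70 probe sets did not pass the threshold (r = -0.0148, exact permutation p = 0.973, adjusted p = 0.973, rho = 0.19, exact permutation p = 0.665, adjusted p = 0.798), and neither did that of Lck with the brighter one after adjustment. It was 0.83 (exact permutation p = 0.0172, adjusted p = 0.206 over 36 pairs, rho = 0.786, exact permutation p = 0.0279, adjusted p = 0.503), and 0.772 without the 2 farthest arrays.

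Lat, the membrane adaptor that Zap70 phosphorylates, had a probe set (mean log2 value 8.48) at 1.27, -0.211, 0.645 and 0.213 in mulberry replicates 1 to 4, against -1.62, 0.471, 0.542 and -1.32 in high-fat replicates 1 to 4. High-fat replicates 1 and 4 were far below the rest and the other 6 arrays overlapped. The means were 0.481 ± 0.634 with mulberry and -0.481 ± 1.15 with high-fat (SD, n = 4 each), a difference of 0.961 ± 0.67 (SE; limma unadjusted p = 0.196, adjusted p = 1). Those low arrays were again the ones with low hybridization controls, and that covariate turned the difference to -0.181. With the polyA controls as the covariate it was 7.42e-05. Human and mouse platelets also use this adaptor, and the list of platelet markers, higher with mulberry in all 9 measured genes, had its lowest value, -1.51, in high-fat replicate 4 and 0.0274 in high-fat replicate 1. The part of platelets in the Lat values was not tested.

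Over the 36 pairs of genes, with 1 probe set a gene and diet means removed, r ranged from -0.46 for Cd3g with Cd247 to 0.862 for Cd3d with Cd3g, with a median of 0.257. It was above 0 in 28 pairs, 4 pairs had an unadjusted exact permutation p under 0.05, and 0 pairs passed the adjustment over 36. The 4 were the pairs already named, Cd3d with Cd3g and Lck with Zap70, and Cd3d with Cd8a (r = 0.825, rho = 0.714, exact permutation p = 0.0119 and 0.0576, adjusted p = 0.206 and 0.577, r = 0.969 without the 2 farthest arrays) and Cd3e with Lat (r = 0.754, rho = 0.619, exact permutation p = 0.0337 and 0.115, adjusted p = 0.303 and 0.591, r = 0.571 without the 2 farthest arrays). Array-wide shifts enter every pair, since genes on an array share its RNA and hybridization.

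**Figure D4:**
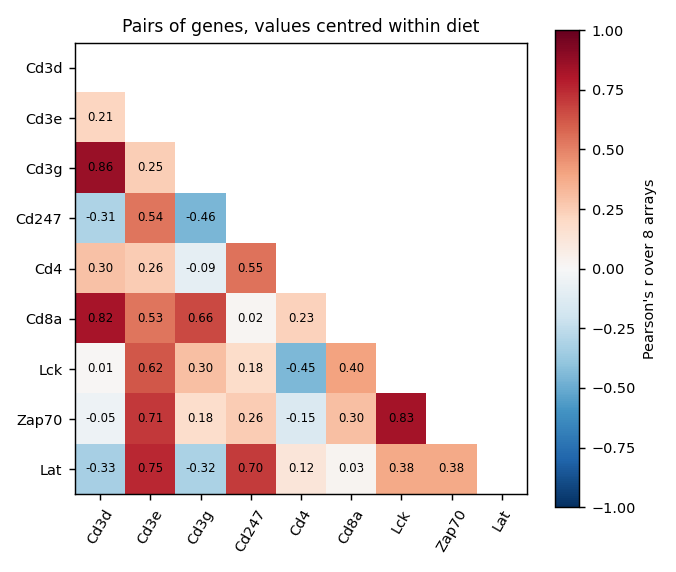
Pearson's r over 8 arrays for each pair of the 9 genes, values centred within diet, with red above 0 and blue below. Cd3d, Cd3g and Cd8a have r of 0.862, 0.825 and 0.66 among themselves, and Cd3e has 0.754 with Lat, 0.709 with Zap70 and 0.618 with Lck.

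The members were not alike across arrays of the same diet. High-fat replicate 2 had the highest value of all 8 arrays in 6 of the 14 probe sets and lay above the average in 13, whereas 12.9% of all tested probe sets were highest in that array. Mulberry replicate 2 lay below the average in 12 of the 14 and was the lowest array in 3. With 1 probe set a gene, the mean of the 9 genes was -0.201, -0.816, 0.185 and 0.19 in mulberry replicates 1 to 4, against -0.369, 1.09, -0.0909 and 0.0149 in high-fat replicates 1 to 4. B cell markers had lower means with mulberry in 7 of 7 genes and erythroid genes in 5 of 8. Neutrophil markers, 8 genes measured, averaged 0.63, -0.351, -0.302 and 0.654 in mulberry replicates 1 to 4, against 0.119, -1.43, 0.258 and 0.42 in high-fat replicates 1 to 4. B cell markers averaged -0.72, 0.723, -0.915 and -0.135 in mulberry replicates 1 to 4, against 0.776, 1.21, -0.932 and -0.00437 in high-fat replicates 1 to 4. The array that was highest for the members was thus also highest for B cell markers and lowest for neutrophil markers, and the part of cell proportions in this was not tested. Without high-fat replicate 2, the differences were -1.31 for Cd3g, -0.955 for Cd3d and -1.02 for Cd4 (limma unadjusted p = 0.0593, 0.206 and 0.184).

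**Figure D5:**
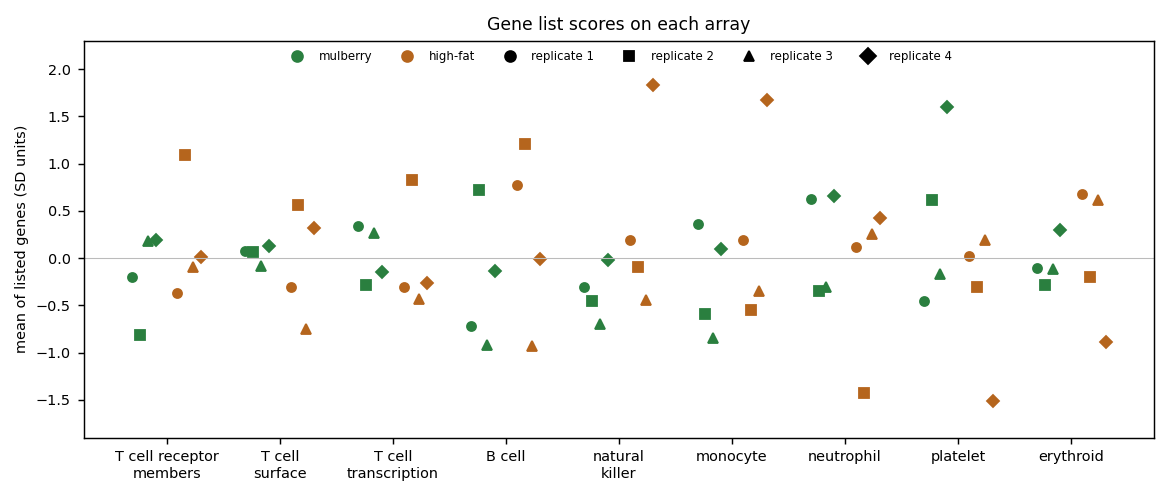
Mean of the listed genes on each array in SD units, 1 probe set a gene, for the 9 T cell receptor genes, wider T cell lists and markers of other blood cells, with mulberry arrays (green) left of high-fat arrays (brown). High-fat replicate 2 is highest for the T cell lists and for B cell markers (1.21) and lowest for neutrophil markers (-1.43), and high-fat replicate 4 is highest for natural killer (1.83) and monocyte (1.67) markers.

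Of the wider T cell genes, 46 genes in 4 lists were measured by 62 probe sets. With the probe set of highest mean for each gene, 0 of the 46 passed the adjusted threshold and 0 had an unadjusted p under 0.05 in limma. The mean was lower with mulberry for 26 and higher for 20, with a median difference of -0.143. Over all 62 probe sets, 2 had an unadjusted p under 0.05 (3.23%), below the share over the whole array, and neither was the brightest for its gene. They were a probe set of Ptpn22 (difference -1.36 ± 0.495 SE, limma unadjusted p = 0.0295) and a probe set of Rasgrp1 (difference -1.28 ± 0.527 SE, limma unadjusted p = 0.0463), named after their values were seen. Both were dim, with mean log2 values of 6.25 and 6.10, below the arrays' medians. The brighter Ptpn22 probe set had a difference of the opposite sign. This count was 0 without mulberry replicate 2 or high-fat replicate 4, 1 without mulberry replicate 3 or 4, and 4 without high-fat replicate 2 or 3.

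Among adaptors and kinases below the receptor, 8 of 12 measured genes had lower means with mulberry. The smallest p was that of Bcl10, a signalling adaptor between the receptor and NF-kB, at -0.624 ± 0.866 with mulberry and 0.624 ± 0.739 with high-fat (SD, n = 4 each; difference -1.25, limma unadjusted p = 0.0542), which turned to 0.852 under median centring and 1.08 under quantile normalization. Plcg1, the phospholipase that Lat recruits, differed by 0.931 ± 0.623 (SE), Grap2, the adaptor that ties Lat to Lcp2, by 0.888 ± 0.632, and Prkcq, the kinase PKC theta, by 0.887 ± 0.637. With the hybridization covariate Plcg1 was at 0.0013, and with polyA controls at 0.112. Prkcq was low in high-fat replicates 1 and 4 (-1.80 and -1.01), as Lat was, and the hybridization covariate gave -0.00435. None of these differed by more than the spread between arrays allows to call.

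Among genes that restrain the receptor, 5 of 9 had lower means with mulberry. Ptpn6, the phosphatase SHP-1, differed by -0.821 ± 0.645 (SE), Ptpn22, a phosphatase acting on Lck, by 0.818 ± 0.649, Csk, the kinase that holds Lck inactive, by -0.687 ± 0.672, and Ctla4, the receptor that competes with Cd28, by 0.684 ± 0.758. Csk turned to 1.09 under median centring and 1.06 under quantile normalization, and Ptpn22 to -0.304 under the hybridization covariate. The Ctla4 probe set had a mean log2 value of 6.566, just below the arrays' medians. High-fat replicate 2 was highest for this list as well, at 0.73.

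Costimulatory and other surface genes had lower means with mulberry in 7 of 13 cases. Cd6, a scavenger receptor family protein of the T cell surface, differed by 1.01 ± 0.606 (SE), Cd28, the main costimulatory receptor, by 0.863 ± 0.642, Ptprc, the phosphatase CD45, by -0.784 ± 0.653 (0.89 under median centring) and Icos, an inducible costimulator, by 0.896 ± 0.752. This brightest Icos probe set had a narrow range with mulberry (0.18 to 0.823) and a wide one with high-fat (-1.77 to 1.24). The dimmer Icos probe sets had the opposite sign, at -1.20 ± 0.80 and -0.206 ± 0.717 (SE), whereas the dimmer Ptprc probe set had the same sign (-0.89). The Cd28 probe set was dim, with a mean log2 value of 6.30, below the arrays' medians. Transcription and homing genes had lower means in 6 of 12. Satb1, a chromatin organiser of developing T cells, differed by 0.977 ± 0.612 (SE), Il2rb, an interleukin receptor chain shared with natural killer cells, by -0.888 ± 0.632, Gata3, the factor of type 2 helper cells, by 0.841 ± 0.641 and Il2rg, the common gamma chain, by -0.785 ± 0.653 (0.999 under median centring). Satb1 was at 0.0935 with the hybridization covariate. Its dimmer probe set (mean log2 value 9.96, against 10.02) had the opposite sign, at -0.215 ± 0.713 (SE). The dimmer Gata3 probe set had the same sign as the brighter (1.24). Il2rb was highest in high-fat replicate 4 at 2.29, the array with the high natural killer markers.

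The genes outside the 9 whose values ran most like the mean of the 4 invariant chains were found by Pearson's r over the 8 arrays, with 1 probe set a gene, among all genes named. They were Sugp1 (r = 0.946), Setd4 (0.945), Gpr19 (0.944), Arfgef1 (0.93) and Yars1 (0.913), given as a description. After quantile normalization the correlations were 0.673 for Sugp1, 0.378 for Setd4, 0 for Gpr19, 0.473 for Arfgef1 and 0.932 for Yars1. They are not like for like, since Cd3g then had the same value on every array and added no variation to the mean. With the deposited values, the mean of the 4 chains was -0.486, -0.931, -0.114 and 0.114 in mulberry replicates 1 to 4, against 0.145, 1.30, 0.00151 and -0.0311 in high-fat replicates 1 to 4. Among its own chains, Cd3e had r = 0.878 with it and Cd247 r = 0.178.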

How the data were processed

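Peripheral blood RNA was profiled on an Affymetrix rat array. RNA was isolated with TRIzol LS and an RNeasy kit, and 200 ng was labelled with the GeneChip IVT Express kit, per the labels' protocols. The deposited values were read as log2 probe set summaries, since every array spans about 5.17 to 15.26. How they were summarised and normalized is not given in the sources used. The median SD of a probe set over arrays was 5.32e-06.

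The 57 control probe sets were left out, and 31042 were tested by lmFit and eBayes of limma 3.58.1 under R 4.3.3 (two-sided, no covariate, Benjamini-Hochberg over all). Platform annotation named 1 gene for 20826 of them, several for 436 and none for 9780, and 20758 of those with 1 gene had a gene number held by RefSeq. Exact permutation tests over arrays (70 assignments) and over pairings (40320) used Python 3.11.15. On simulated data for the same comparison over 31042 probe sets, limma recovered 28% of probe sets moved by 4 within-group SDs, 94% at 8 and 100% at 16 and at 32. Each size was given to 50 probe sets in the same run, and 14 unmoved probe sets were called in it. The large changes ease the adjustment for the smaller ones. No probe set passed it in the data, so these shares are not the power reached here.

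The members, lists and tests were chosen with earlier results of these data known. Genes named from the wider lists were the 4 of smallest p in each. The lists, blood cell markers included, held 136 genes, of which 110 were measured. Alternatives were 3 between-array normalizations, a filter on dim probe sets, the replicate number as a block, leaving out each array, other variance models, 3 covariates and 1 probe set per gene. Alternatives for the correlations were added after seeing the data.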

Additional observations from a re-analysis of the deposited data

Results flagged for a closer look

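Within a diet, 7 values lay far from the other 3 arrays of that diet by Dixon's criterion on the gap to the nearest array. They came from 90 checked groups of 4 arrays, of which chance alone flags about 1 in 20. The brighter Cd3e probe set was at -1.83 in mulberry replicate 2, the next array of that diet being at -0.0326. High-fat replicate 2 was alone at the top of its diet for the mean of the 4 invariant chains (1.30, the next array at 0.145), for the genes that restrain the receptor (0.73, next -0.138) and for T cell transcription and homing genes (0.826, next -0.266). It was alone at the bottom for neutrophil markers (-1.43, next 0.119). Ptprc was at 0.269 in mulberry replicate 1, with the next array at -0.573, and the brighter Gata3 probe set was at 2.42 in mulberry replicate 4, with the next at -0.105.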

How the results depend on the processing

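The count of 0 members past the adjusted threshold was the same under all 19 alternatives. The count of members at an unadjusted p under 0.05 was 1 as reported, 0 after quantile normalization or with polyA controls as covariate, 2 with the erythroid score as covariate, and 0 to 2 when arrays were left out in turn. Over all probe sets, 12 passed the adjusted threshold after quantile normalization and 0 otherwise. The 1352 at an unadjusted p under 0.05 became 534 after quantile normalization, 2492 after median centring and 888 with centring in SD units. They numbered 794 with hybridization controls, 878 with polyA controls, 1590 with the erythroid score, 1728 with the replicate block and 934 with unit SD. Of 15521 brighter probe sets they were 630, and of 14217 with 1 probe set per gene 565. Leaving out arrays gave 1091 to 2054 (2054 without high-fat replicate 3). Members whose groups separated numbered 0 to 2 when arrays were left out. The wider lists' count of 2 was 0 after quantile normalization, in the brighter probe sets, with unit SD before the fit or with 1 probe set per gene, 1 with centring in SD units or the polyA controls, 6 with median centring or the erythroid score, and 0 to 4 when arrays were left out. After quantile normalization the contrast of Cd4 with Cd8a was 0.437, the difference of Cd4 alone. It was -2.01 with the hybridization controls (exact permutation p = 0.0286) and -1.39 with polyA controls (exact permutation p = 0.257). After median centring it was -0.227 (exact permutation p = 0.0571). With the replicate block it was -1.76 (exact permutation p = 0.125), the smallest p that swapping the diets within replicate numbers can give. Leaving out arrays gave -2.07 to -1.18 with exact permutation p from 0.0571 to 0.314. The count of correlated pairs was 36 after median centring and 0 to 1 when arrays were left out. The arrays' medians span 9.36e-05, against a median SD of 5.32e-06 for a probe set. The mean of these medians differed by -3.45e-05 (mulberry minus high-fat). Median centring therefore raised the log2 difference of every probe set by the same amount. After it, 2465 of the 2492 probe sets at an unadjusted p under 0.05 in limma were higher with mulberry. Median centring turned Cd3d to 0.57, the brighter Cd3e probe set to 0.99, Cd3g to 0.949, the dimmer Cd247 probe set to 1.13, Lck to 1.19, Zap70 to 1.18 for each probe set, Cd4 to 0.967, the Cd8a probe set at 8.54 to 1.04, Bcl10 to 0.852, Csk to 1.09, Ptprc to 0.89 and Il2rg to 0.999. Quantile normalization left 9 of the 14 members at a difference of 0 and turned Cd4 to 0.437, Bcl10 to 1.08 and Csk to 1.06. The dimmer Cd247 and brighter Zap70 probe sets and the Cd8a one at 8.54 all came to 0.707. Ties between arrays can give equal values, so these are not read as reversals. The hybridization controls turned the brighter Cd247 probe set to -0.731, Lat to -0.181, Prkcq to -0.00435 and Ptpn22 to -0.304, and the polyA controls turned Prkcq to -0.0727. Quantile normalization left Cd3g the same on every array, so no difference could appear. Why other values changed under it and the control covariates was not tested. Leaving out arrays gave -0.415 to 0.571 for the brighter Zap70 probe set and -0.416 to 0.853 for the Cd8a probe set at 8.54, and reversed no other member. The labels do not say whether the replicate numbers pair the arrays. Deviations of same-numbered arrays correlated at -0.0462, -0.0505, 0.246 and 0.163 for replicates 1 to 4. Those of differently numbered arrays correlated at -0.199 to 0.147, so pairing was left undecided. The replicate block cannot move a difference in this balanced design. With it, Cd3g (-1.40) had a limma unadjusted p of 0.0285 and the member count was 1. The limma unadjusted p of Cd3g was 0.0421 with the intensity trend and 0.0479 with unit SD before the fit. For the contrast of Cd4 with Cd8a, the variance models, the dim filter and the choice of 1 probe set per gene were not run, since they do not enter that test.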
